A study of Mus musculus with 28 samples.

Results

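The mesoderm and muscle bHLH genes described here are Hand1, Hand2, Twist1, Twist2, Myod1, Myog, Myf5, Myf6, Mesp1 and Mesp2. They encode tissue-restricted transcription factors with a basic helix-loop-helix (bHLH) fold and were chosen by name, as 10 of 21887 protein-coding genes on the assembled mouse chromosomes. For each gene, the regions of H3.3 and of H3K27ac that touched the gene body or the 50 kb on either side of it were collected at mm10 positions. The windows of Myf5 and Myf6 overlap, as do those of Mesp1 and Mesp2, so the members of these 2 pairs are not independent observations.

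The regions came from CUT&RUN, a method in which nuclease bound to an antibody cuts out the chromatin that the antibody recognises, and the freed fragments are sequenced. The nuclei were those of male E14 mouse embryonic stem cells. The 28 libraries covered the genotypes H3f3a_AA_H3f3b_WTWT, H3f3a_WTWT_H3f3b_AA, H3f3a_AA_H3f3b_WTA and H3f3a_WTA_H3f3b_AA, and Wildtype cells, each with antibodies to H3.3, H3K27ac and H3K122ac and a control without primary antibody. H3f3a and H3f3b both encode H3.3, and the series title names a lysine-to-alanine change in H3.3. H3f3a_AA_H3f3b_WTA came as 2 clones and Wildtype as biological duplicates, with 1 replicate for each of the other 3 genotypes. The values analysed were 2 lists of consensus regions, with 5446 entries in that of H3.3 and 57857 in that of H3K27ac. These lists carry no height and no value per library, so depth is unknown, no count below has replicates, and a region cannot be assigned to mutant or to Wildtype cells.

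Tissue-restricted bHLH factors bind DNA at the short E-box motif as dimers, usually with a widely expressed E protein, and Id proteins, which lack the basic DNA-binding part, hold E proteins back from them. In the embryo these factors commit cells to mesoderm, heart, limb, dermis and skeletal muscle, and embryonic stem cells have not yet made that choice. H3.3 is a variant of histone H3 that cells place in chromatin independently of DNA replication. In embryonic stem cells it is known both from active genes and from promoters of silent developmental genes, many of them held by Polycomb complexes. H3K27ac, acetylated lysine 27 of histone H3, marks active promoters and enhancers.

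The promoters of 5 members show the range of base composition over the set. RefSeq (GRCm38.p6) gave a promoter for 7 of the 10 members, all but Hand1, Myod1 and Myf6. Shown are the 250 bases before the annotated start, 5′ to 3′ on the strand of the gene, with each CG dinucleotide in capitals. Of these 7, Hand2 and Twist1 are the members whose promoter touched an H3.3 region, and Twist2 is the paralogue of Twist1 without one. Hand1 is left out of this count for want of a promoter entry. Its H3.3 region reached 1498 bp below and 687 bp above the gene, so the 250 bases beyond either end lay inside it. Myog is a myogenic factor gene, and Mesp1 has the fewest CG of the 7. The positions are chr8:57320733-57320982 for Hand2, chr12:33957421-33957670 for Twist1, chr1:91801211-91801460 for Twist2 and chr1:134289754-134290003 for Myog, all on the + strand, and chr7:79793591-79793840 on the - strand for Mesp1.
Hand2: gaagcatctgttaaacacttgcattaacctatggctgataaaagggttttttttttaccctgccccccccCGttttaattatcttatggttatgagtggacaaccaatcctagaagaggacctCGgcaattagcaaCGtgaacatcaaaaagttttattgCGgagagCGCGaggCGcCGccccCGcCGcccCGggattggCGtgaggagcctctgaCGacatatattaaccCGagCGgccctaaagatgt
Twist1: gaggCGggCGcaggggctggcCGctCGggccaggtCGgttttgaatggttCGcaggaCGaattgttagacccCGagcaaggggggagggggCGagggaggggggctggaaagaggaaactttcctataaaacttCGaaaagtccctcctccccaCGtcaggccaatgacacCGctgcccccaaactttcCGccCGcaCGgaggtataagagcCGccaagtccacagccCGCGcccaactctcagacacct
Twist2: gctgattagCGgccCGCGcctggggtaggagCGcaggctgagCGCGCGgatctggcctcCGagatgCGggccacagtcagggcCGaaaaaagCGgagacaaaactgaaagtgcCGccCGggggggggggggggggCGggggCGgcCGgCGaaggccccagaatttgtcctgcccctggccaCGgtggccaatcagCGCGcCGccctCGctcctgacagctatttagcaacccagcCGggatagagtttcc
Myog: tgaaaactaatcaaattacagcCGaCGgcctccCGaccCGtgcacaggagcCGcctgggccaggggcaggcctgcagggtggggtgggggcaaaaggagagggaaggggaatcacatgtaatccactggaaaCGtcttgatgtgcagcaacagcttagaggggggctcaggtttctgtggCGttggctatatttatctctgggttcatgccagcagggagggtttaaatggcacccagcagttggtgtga
Mesp1: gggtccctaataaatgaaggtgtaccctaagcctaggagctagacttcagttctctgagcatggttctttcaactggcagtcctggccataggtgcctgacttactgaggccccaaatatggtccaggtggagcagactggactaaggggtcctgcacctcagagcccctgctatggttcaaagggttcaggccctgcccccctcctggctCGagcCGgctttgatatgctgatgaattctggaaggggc

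H3.3 regions lay at Hand1, Hand2 and Twist1, and the windows of the other 7 members held none. Here and below, presence or absence of H3.3 or H3K27ac means that of a listed region. A missing region does not show that the histone or its acetylation is missing. These 3 genes held all 10 H3.3 regions of the set, with 1 region at Hand1, 6 at Hand2 and 3 at Twist1. A window with at least 1 H3.3 region was thus found for 3 of 10 members, against 41.3% of all protein-coding genes, so as a count the members do not stand above the genome. H3.3 sequence inside the window came to 5620 bp at Hand1, 7196 bp at Hand2 and 2351 bp at Twist1. The median over all protein-coding genes was 0 bp and the 90th percentile 1480 bp. Of these genes, 98.8% had less than Hand1, 99.2% less than Hand2 and 95.1% less than Twist1. The 3 members were picked out by having a region, and most protein-coding genes had none. Values above the median of 0 bp, and part of these ranks, therefore follow from that choice. Ranks among only the genes with an H3.3 region are not given here.

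**Figure D1:**
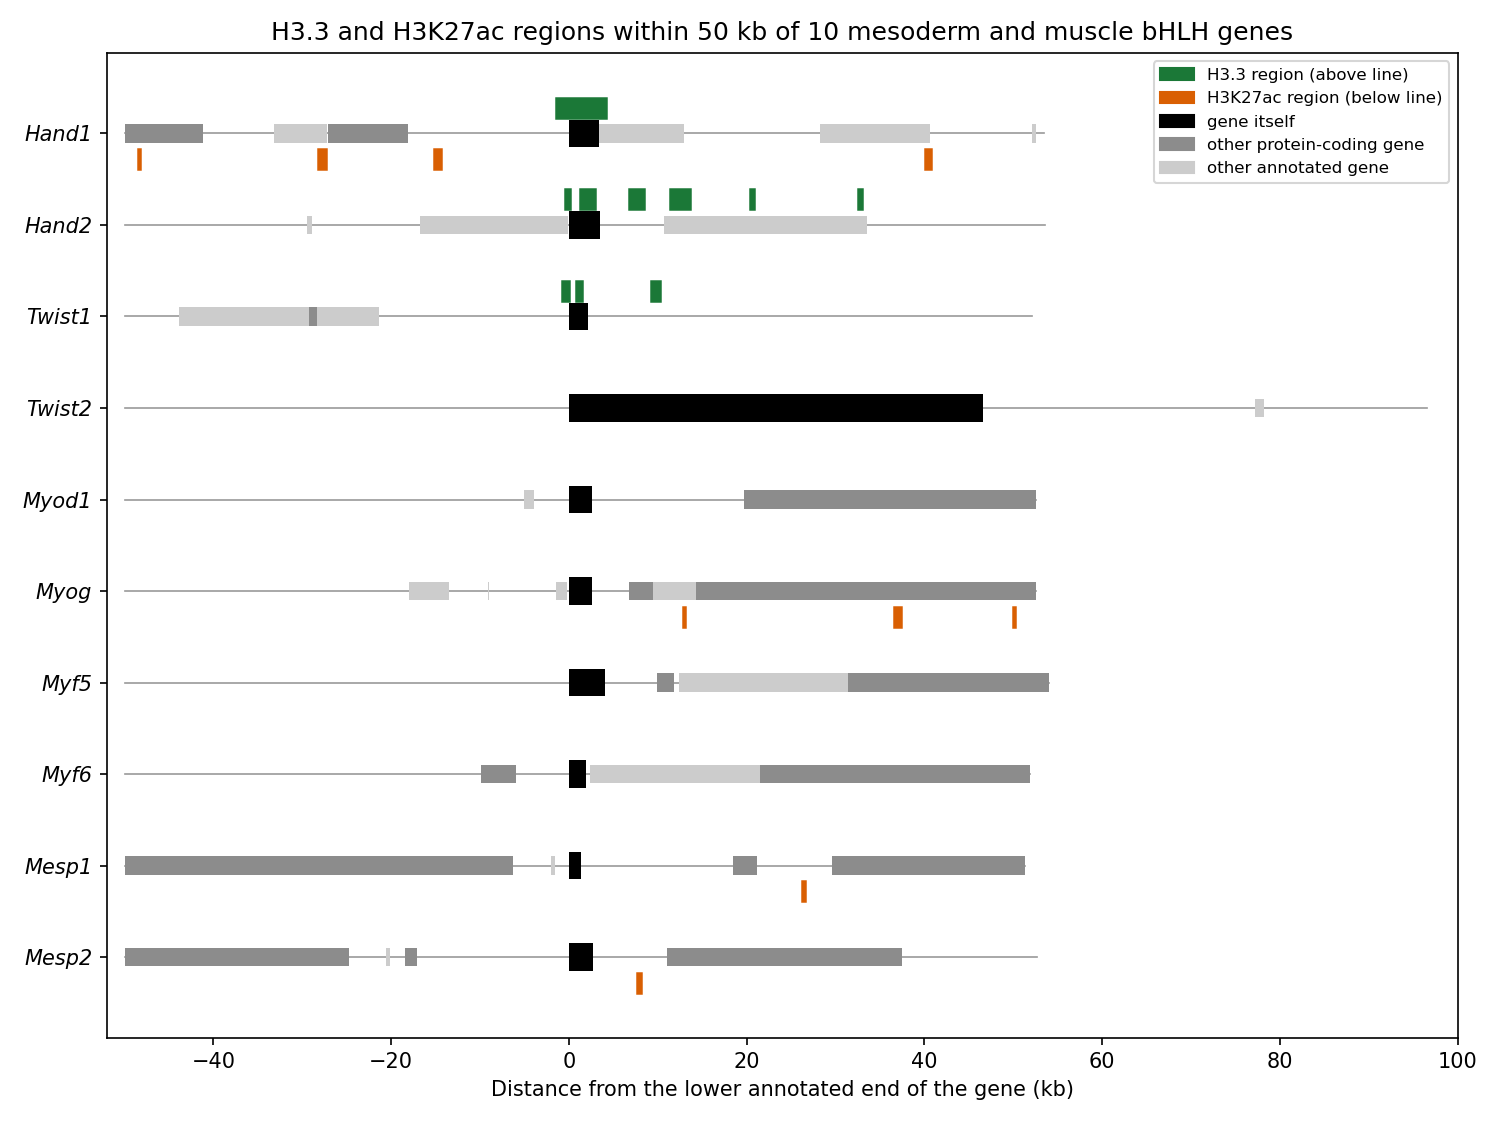
Regions of H3.3 (green, above each line) and H3K27ac (orange, below) in the window of each member, with distance from the lower annotated end of the gene in kb on the x axis. H3.3 boxes appear only for Hand1, Hand2 and Twist1, and the lines of Twist2, Myod1, Myf5 and Myf6 carry no box of either kind.

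Hand1, a factor of trophoblast giant cells and of the heart and lateral mesoderm, was covered by 1 wide H3.3 region. It measured 5620 bp, on chromosome 11 from 57827215 to 57832834, and spanned the whole annotated gene (100% of 3435 bp) reaching 1498 bp below its lower end and 687 bp above its upper end. By width it ranked 40 among the 5430 H3.3 regions on assembled chromosomes, wider than 99.3% of them. It also touched the noncoding RNA gene Gm32915, whose annotation begins at the upper end of Hand1, so the region cannot be assigned to one gene alone.

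Hand2, a factor of heart, limb bud and branchial arches, carried H3.3 as a series of separate regions that ran downstream. The first, of 588 bp from 57320564 to 57321151 on chromosome 8, lay over the start of the gene and covered all 250 promoter bases shown above. The second measured 1660 bp and lay inside the gene, and together they covered 51.7% of the annotated body. Beyond the gene lay regions of 1668, 2315, 471 and 494 bp, at gaps of 3278, 7814, 16791 and 28964 bp from its far end. The last 3 of these touched Hdnr, a noncoding RNA gene, the one of 2315 bp also touched Gm34030, and the region at the start touched Hand2os1, the divergent noncoding RNA gene upstream of Hand2. The window held no H3.3 region further upstream than the one at the start.

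Twist1, a factor of head mesenchyme, limb and cranial neural crest, had 3 H3.3 regions of similar size. One of 724 bp, from 33956902 to 33957625 on chromosome 12, ended 45 bp before the annotated start and covered 205 of the 250 promoter bases. Another of 709 bp lay inside the gene and covered 32.8% of its body, and 1 of 918 bp lay 7124 bp beyond its far end. The bases right at the annotated start were in neither of the first 2 regions. Ferd3l, a bHLH gene of the floor plate of the neural tube that shares the window, had no H3.3 region within 1 kb.

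**Figure D2:**
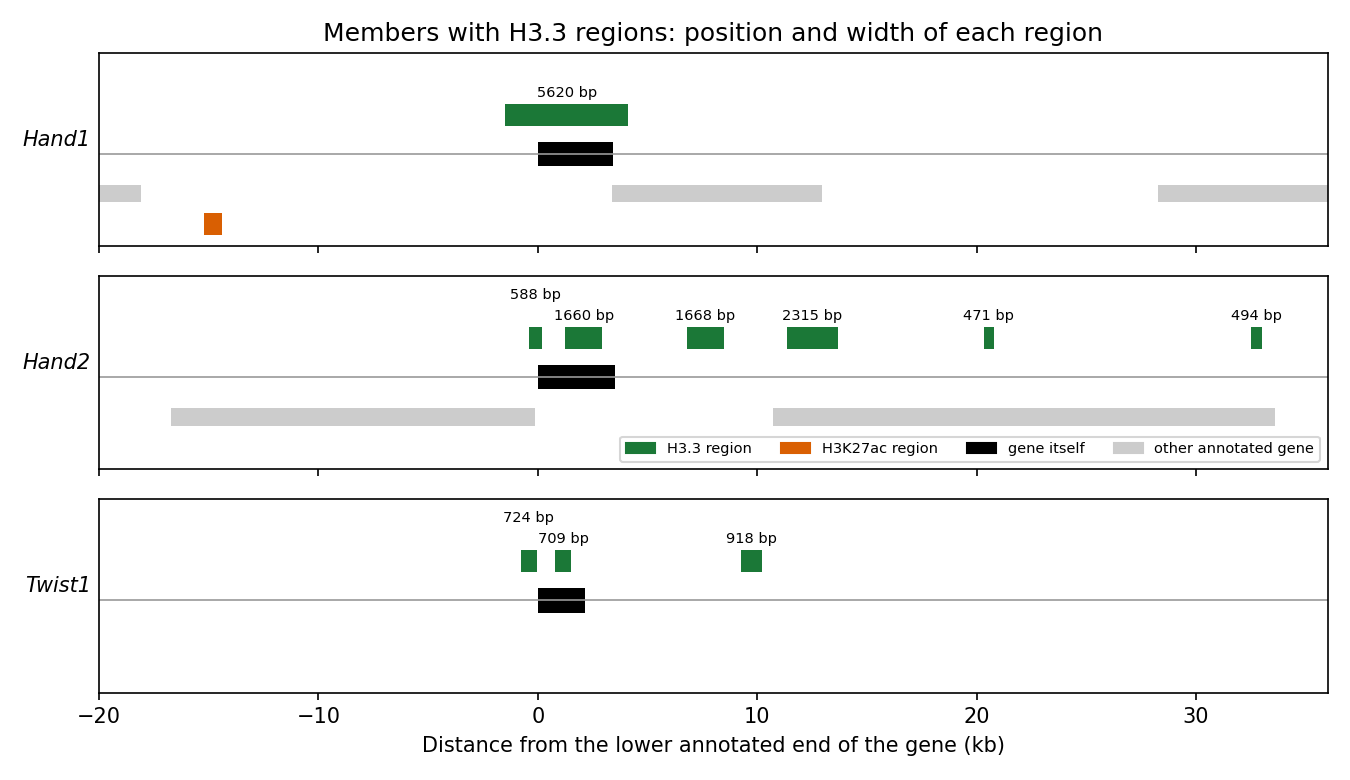
Position and width of each H3.3 region (green) at Hand1, Hand2 and Twist1, with distance from the lower annotated end of the gene in kb on the x axis. Hand1 has 1 region of 5620 bp over the whole gene, Hand2 has 6 of 471 to 2315 bp and Twist1 has 3 of 709 to 918 bp.

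The 10 regions measured 471 to 5620 bp, with a median of 821 bp, and the median of all H3.3 regions on assembled chromosomes was 451.5 bp. Each of the 10 was wider than that median. None of the 10 shared a base with an H3K27ac region (0%, exact Clopper-Pearson 95% interval 0 to 30.8%, over regions only), against 47.5% of all H3.3 regions. The interval treats regions of 1 gene as independent, which they are not. The gap from an H3.3 region to the nearest H3K27ac region was 12913 bp at Hand1, between 132972 and 165796 bp at Hand2 and between 520485 and 530539 bp at Twist1. Over all 2851 H3.3 regions that touched no H3K27ac region, the median gap was 23869 bp and the 90th percentile 201000 bp.

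Among the paralogue pairs, Twist1 and Twist2 differed in H3.3 regions. Both Hand genes had them, whereas of the Twist genes only Twist1 did. Neither gene had one in the pair Myf5 and Myf6 or in the pair Mesp1 and Mesp2. Twist2, a factor of dermis and other mesenchyme, had neither mark in a window that covered its 46574 bp body and both flanks. Its nearest H3.3 region lay 332292 bp away and its nearest H3K27ac region 71713 bp away.

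None of the 4 myogenic factors had an H3.3 region in its window. Myod1 and Myf5, which commit cells to the skeletal muscle lineage, and Myf6, which acts in both commitment and differentiation, had no region of either mark. Myog, which drives the differentiation of committed myoblasts, had no H3.3 region and 3 H3K27ac regions. The nearest H3.3 region was 260422 bp from Myod1, 113131 bp from Myog, 799908 bp from Myf5 and 792112 bp from Myf6. Myf5 and Myf6 lie side by side in a stretch without either mark, with the nearest H3K27ac region 674298 bp from Myf5 and 666502 bp from Myf6.

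Mesp1, a factor of the earliest cardiac mesoderm, and Mesp2, a factor of somite segmentation, had no H3.3 region in their windows. The nearest one, of 1023 bp, lay 55226 bp from Mesp2 and 75067 bp from Mesp1, just outside the 50 kb flank of Mesp2. Both genes shared 1 H3K27ac region, described next.

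H3K27ac lay within 50 kb of Hand1, Myog, Mesp1 and Mesp2, which makes 4 of 10 members against 73.2% of all protein-coding genes. The set held 8 such regions, of 207 to 851 bp, with a median of 494 bp against 812 bp over all H3K27ac regions. H3K27ac sequence in the window came to 2471 bp at Hand1, 1256 bp at Myog and 383 bp at Mesp1 and at Mesp2, and to 0 bp at the other 6. The median of all protein-coding genes was 3940 bp, so all 10 members were below it. The median gap from a member's body to the nearest H3K27ac region was 117071.5 bp, and the same median for all protein-coding genes was 499 bp. The windows of the members also held fewer genes, with 0 to 4 other protein-coding genes and a median of 1.5. The median over all protein-coding genes was 3. Window length also grows with the gene body, which ran from 1350 bp at Mesp1 to 46574 bp at Twist2. The part of gene number and of window length in the low H3K27ac values was not tested.

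Of these 8 regions, 6 lay in other annotated genes. At Hand1, regions of 207, 851 and 605 bp touched Galnt10, the noncoding RNA gene 2010001A14Rik and the noncoding RNA gene Gm33026, and the one of 851 bp also lay within 1 kb of Sap30l. The remaining region at Hand1, of 808 bp from 57813494 to 57814301, touched no annotated gene and lay 14411 bp below the lower end of Hand1. All 3 regions at Myog, of 243, 791 and 222 bp, lay in the neighbouring gene Ppfia4, the nearest of them 10268 bp from Myog. The region shared by Mesp1 and Mesp2, of 383 bp on chromosome 7 from 79818415 to 79818797, touched no annotated gene and lay 4983 bp from Mesp2 and 24824 bp from Mesp1.

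**Figure D3:**
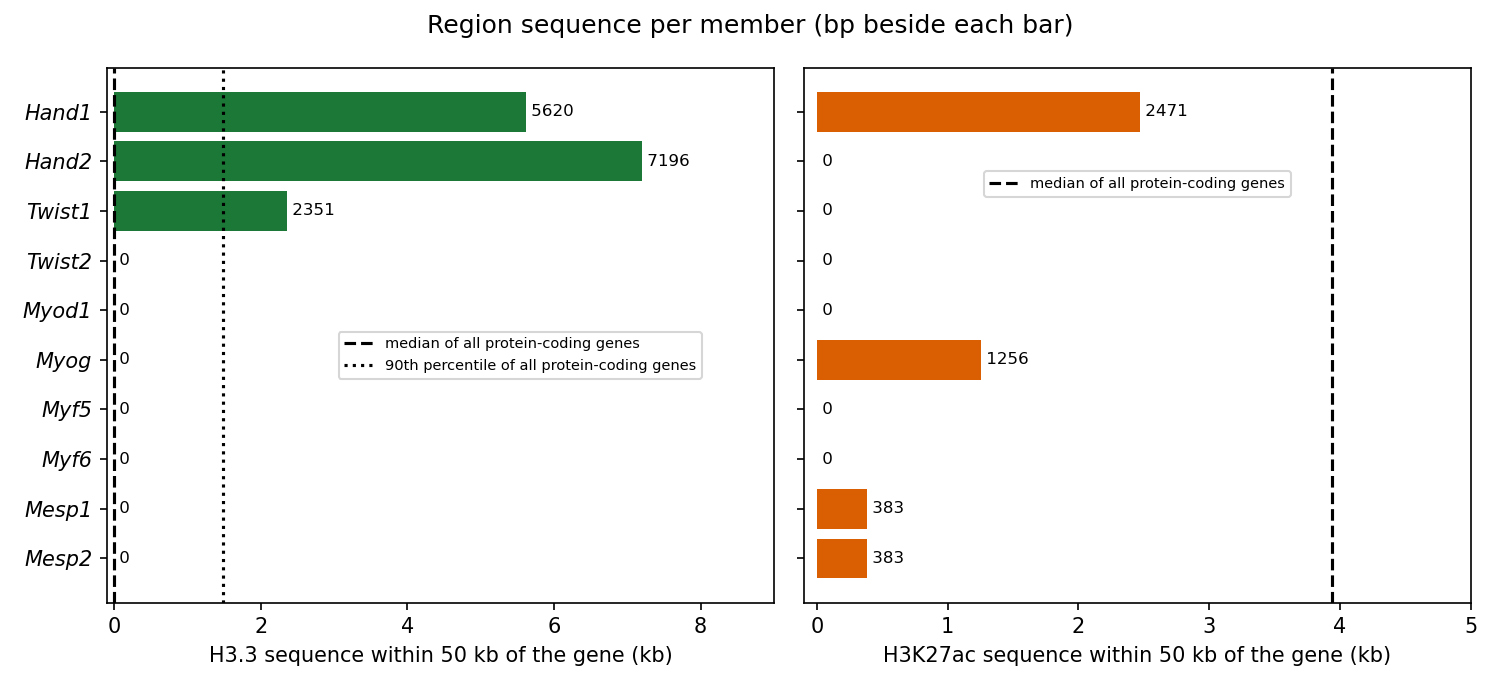
H3.3 sequence (left, kb) and H3K27ac sequence (right, kb) within 50 kb of each member, with the value in bp beside each bar. Dashed lines give the median over all protein-coding genes and the dotted line the 90th percentile for H3.3. Hand1, Hand2 and Twist1 exceed the H3.3 line at 1480 bp, and no member reaches the H3K27ac median of 3940 bp.

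By pattern, the window held H3.3 without H3K27ac at Hand2 and Twist1, which is 2 of 10 members against 2.7% of protein-coding genes. Both marks were in the window of Hand1, 1 of 10 against 38.6%. H3K27ac without H3.3 was found for Myog, Mesp1 and Mesp2, 3 of 10 against 34.6%. The 4 members with neither mark were Twist2, Myod1, Myf5 and Myf6, against 24.1%, and Myf5 and Myf6 share most of their window. With 10 genes in 8 separate windows, each of these counts rests on few observations, and no test was made.

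At the gene ends, taken as 1 kb to each side of the first and last annotated base, H3.3 was present at 3 of 10 members, again Hand1, Hand2 and Twist1, against 16.0% of protein-coding genes. H3K27ac was present at none of the 10, against 38.8%. H3.3 alone was therefore found at 3 of 10 members against 5.31%, and neither mark at 7 of 10 against 55.8%.

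The 7 promoters differed in their content of CG dinucleotides, and the 2 of them with H3.3 were among the 3 richest. Hand1, whose H3.3 region ran past both ends of the gene, has no promoter entry and so no CG count. The 250 bases held 23 CG at Twist2, 18 at Twist1 and 15 at Hand2, and then 8 at Mesp2, 7 at Myog, 3 at Myf5 and 2 at Mesp1, against a median of 10 over 17486 protein-coding promoters. H3.3 touched 2 of the 7 promoters, those of Hand2 and Twist1, against 10.3% of all, and H3K27ac touched none, against 20.6%. The promoter with most CG, that of Twist2, was not touched. The ratio of observed to expected CG was 0.99 at Hand2, 0.79 at Twist2 and 0.74 at Twist1, and 0.39 at Mesp2, 0.37 at Myog, 0.20 at Myf5 and 0.11 at Mesp1, against a median of 0.54. For Myf5 the RefSeq start used here, at 107486134 on chromosome 10, lies inside the annotated span of the gene.

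Over all promoters, the share touched by H3.3 varied with this count. It was 0.452% of the 5977 promoters with 0 to 4 CG and 6.79% of those with 5 to 9. It was 20.6% with 15 to 19 CG, where Hand2 and Twist1 fall, and 23.0% with 20 to 24, where Twist2 falls. With 25 or more CG it was 13.2%. Most promoters with as many CG as those of Hand2 and Twist1 thus had no H3.3 region.

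**Figure D4:**
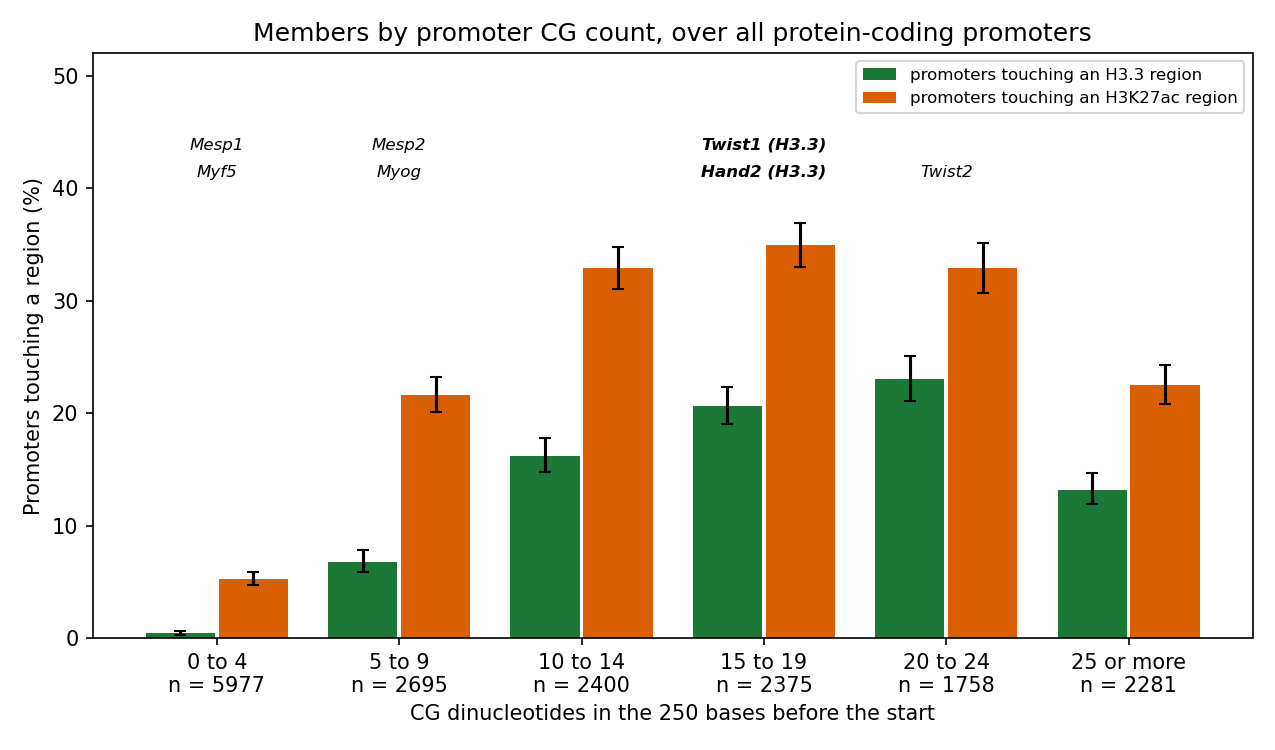
Share of protein-coding promoters touched by an H3.3 region (green) or an H3K27ac region (orange), in percent, by the number of CG dinucleotides in the 250 bases before the start. Error bars are exact Clopper-Pearson 95% intervals over promoters, and the 7 members with a promoter are named above their class, in bold where H3.3 touches. Hand2 and Twist1 stand in the class of 15 to 19, where 20.6% of promoters are touched by H3.3.

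The E-box motif CANNTG, searched on both strands without any overlap counted again, had 2 matches in the promoters of Hand2, Myog and Mesp1, 1 in that of Mesp2 and none in those of Twist1, Twist2 and Myf5. It occurred in 62.7% of all protein-coding promoters of the same length. The motif TATAAA, searched likewise, had 1 match at Twist1 and none at the other 6, and occurred in 12.4% of all. The 2 of these 7 promoters touched by H3.3 thus differed in both motifs, and Hand1 could not be searched.

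Genes with a pattern most like that of Hand2, the member with the most H3.3 sequence, were sought among protein-coding genes at least 200 kb from any member. Likeness was the distance in log2(bp + 1) of H3.3 and of H3K27ac sequence in the window. The nearest were Tlx1, a homeobox gene of the spleen, with 7106 bp of H3.3, Pdgfra, a growth factor receptor gene of mesenchyme, with 7053 bp, and Cdx2, a homeobox gene of trophoblast and gut, with 7421 bp. Each had 0 bp of H3K27ac in its window, as Hand2 did. They were picked for likeness in both amounts, so this is no separate finding. Of the protein-coding genes at least 200 kb from any member, 174 had at least as much H3.3 sequence as Hand2. The window held no H3K27ac at 93 of them.

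A further 6 lists, in all 73 genes, place the members among their partners, regulators and targets. Each was read at the gene ends first, where H3.3 was present at 16.0% and H3K27ac at 38.8% of protein-coding genes, and then within 50 kb. A region at a gene end can belong to a neighbouring gene. Of 12 other tissue-restricted mesoderm bHLH genes, 3 had H3.3, namely the blood factor genes Tal1 (3966 bp for the widest region) and Lyl1 (1754 bp) and the limb gene Bhlha9 (575 bp). Ferd3l, the muscle repressor gene Msc, the presomitic mesoderm gene Msgn1 and the tendon gene Scx had none. The name of this list does not hold for every gene in it, since Ferd3l is a gene of the neural tube. H3K27ac was present at 2 of these 12, Msc (240 bp) and the somite gene Tcf15 (4348 bp). No gene of this list had both.

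Among the partners and inhibitors, H3.3 was found at 1 of 3 E protein genes and at 3 of 4 Id genes. Of the E protein genes, Tcf3 had H3.3 (319 bp) as well as H3K27ac (298 bp), Tcf4 had H3K27ac (431 bp) and Tcf12 had neither. Id2 (487 bp), Id4 (419 bp) and Id3 (212 bp) had H3.3 without H3K27ac, and Id1 had H3K27ac (685 bp) without H3.3.

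Of 18 upstream regulators of mesoderm and muscle, 10 had H3.3 at a gene end (55.6%, exact Clopper-Pearson 95% interval 30.8 to 78.5%, over genes only) and 3 had H3K27ac. Wide H3.3 regions lay at Lbx1, a gene of migrating limb muscle precursors (6768 bp), Pax7, of muscle satellite cells (4661 bp), and Tbx1, of pharyngeal mesoderm (4352 bp). Eya1, Eya2, Gata4 and Mef2c had no H3.3 at an end. H3K27ac was found at Mixl1 (177 bp), Six4 (18263 bp) and Tbx6 (693 bp).

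Of 20 muscle structural and fusion genes, many of them targets of the myogenic factors, 0 had H3.3 at an end (exact 95% interval 0 to 16.8%, against 16.0% of protein-coding genes, which lies inside it), and Acta1, Actc1, Cav3 and Chrna1 are the first of them by name. H3K27ac was found at 3 of the 20, namely Mb (7512 bp), Myl4 (1245 bp) and Mymx (11852 bp), and each of these 3 had at least 14 H3K27ac regions within 50 kb.

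Proneural bHLH genes, which act in the nervous system, had H3.3 at 10 of 16 (62.5%, 35.4 to 84.8%), against 3 of 10 members (30.0%, 6.67 to 65.2%). The intervals overlap and the difference was not tested. Among them H3.3 was widest at Olig2 (4543 bp), Neurog2 (3164 bp), Atoh1 (2462 bp) and Olig1 (1710 bp), and Atoh7, Bhlhe22, Bhlhe23 and Neurod4 had none. H3K27ac was at no gene end in either list. The widest region per gene had a median of 753 bp over the 10 proneural genes and of 1660 bp over the 3 members. The values of the 3 members were 5620 bp at Hand1, 1660 bp at Hand2 and 724 bp at Twist1. The one at Hand2 was the region inside the gene, within 1 kb of its far end, and the region over its start measured 588 bp. The median of the members thus rests on that 1 region. For all 3495 protein-coding genes with H3.3 at an end, the median of the widest region was 486 bp.

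Within 50 kb, H3.3 was found for 3 of 10 members, 5 of 12 other mesoderm bHLH genes, 1 of 3 E protein genes, 4 of 4 Id genes, 14 of 18 upstream regulators, 9 of 20 muscle genes and 12 of 16 proneural genes, against 41.3% of protein-coding genes. H3K27ac was found for 4 of 10 members, 9 of 12 other mesoderm bHLH genes, 3 of 3 E protein genes, 4 of 4 Id genes, 12 of 18 upstream regulators, 16 of 20 muscle genes and 5 of 16 proneural genes, against 73.2%. The members and the proneural genes thus had the lowest shares for H3K27ac of these lists, and no difference between lists was tested. Ferd3l, of the 12 other mesoderm bHLH genes, lies in the window of Twist1, and its 3 H3.3 regions within 50 kb are those of Twist1. The same regions thus enter the H3.3 counts of both lists.

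**Figure D5:**
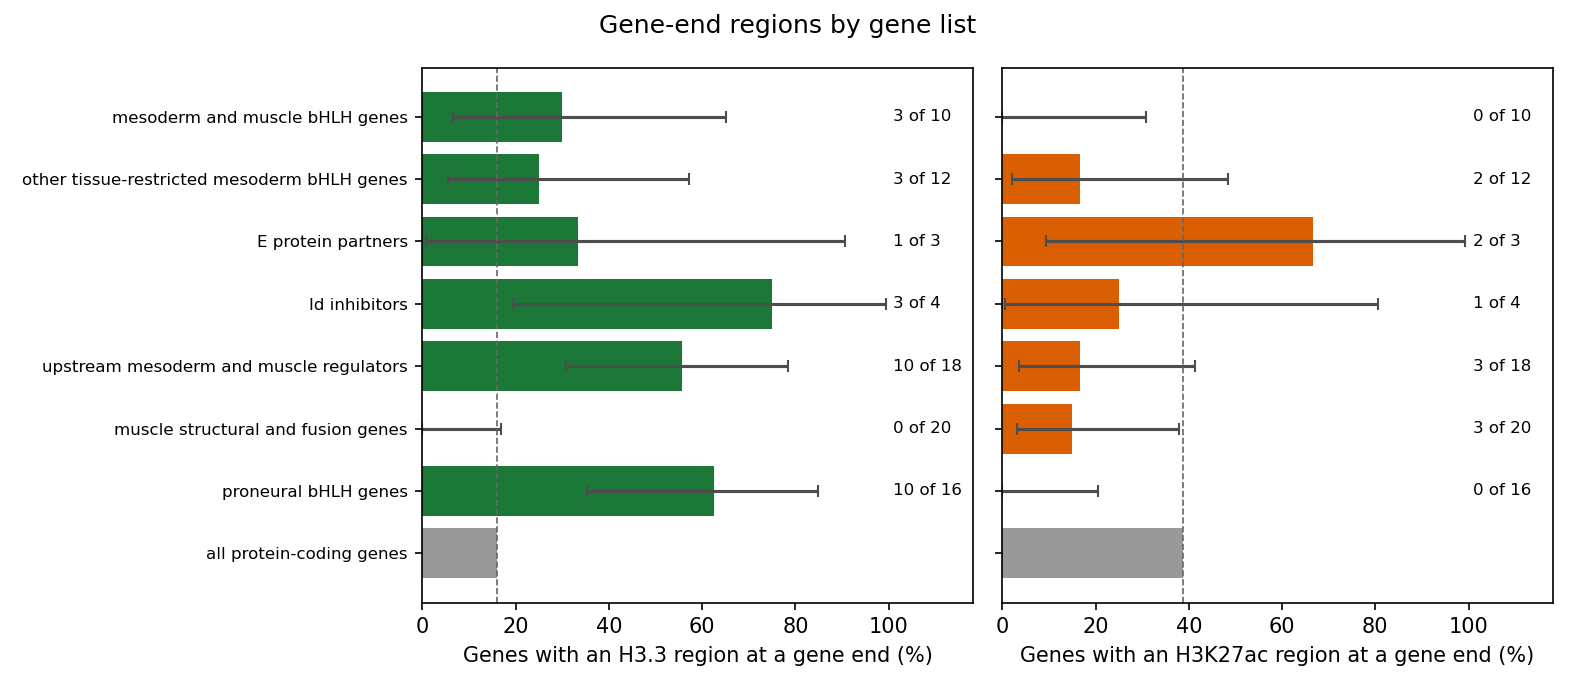
Share of genes with an H3.3 region (left) or an H3K27ac region (right) at a gene end, in percent, for the members and 6 further lists, with all protein-coding genes in grey at the bottom and as a dashed line. Error bars are exact Clopper-Pearson 95% intervals over genes and counts stand at the right of each panel. The members have 3 of 10 for H3.3 and 0 of 10 for H3K27ac, against 16.0% and 38.8% of all protein-coding genes.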

How the data were processed

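Groups of the 28 libraries (target and genotype) were read from the titles. Bowtie2, SAMtools, deepTools, MACS2 and mm10 appear in the submitters' processing notes, and neither versions nor the step each did are stated. Per the labels' protocols, a protein A fusion of the nuclease was used for H3K27ac and a protein A/G fusion for H3.3, and digestion was stopped in buffers of different salt, so amounts of the 2 marks are not comparable. The rule by which the authors made a consensus from single libraries is not given in the sources used here.

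Values that the authors deposited are only the start and end of each consensus region in bp, without score, height or p-value, so a region weak in every library and a strong one count alike. Columns of other samples numbered 0. Coordinates are given 1-based, as a browser shows them. The 16 H3.3 and 13 H3K27ac regions off the assembled chromosomes were not used.

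Gene positions came from the RefSeq table of GRCm38.p6, whose chromosomes carry mm10 coordinates. It gives no exons, so regions inside a gene are not split by exon, intron or UTR. A region counted in a window if it shared 1 bp with it. Promoters were the 250 bases before the first RefSeq start listed for each protein-coding gene. No replicate test was possible, and intervals cover counting over regions, promoters or genes only. Counting was tested on simulated data. Python 3.11.15, pandas 2.3.3 and SciPy 1.17.1 were used.

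The members and lists were chosen with earlier results of these data known. All members are named; of each other list the rule took up to 4 genes with H3.3 at an end (widest first) and up to 4 without (alphabetical). The genes with H3K27ac at an end that the rule does not take (Tcf15, Mixl1, Six4, Tbx6, Mb, Myl4 and Mymx) complete sets of 5 or fewer and were named after their values were seen. A gene that the rule takes is not reported here. Alternatives covered the flank, the overlap rule, the gene-end window, region width and regions at other genes.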

Additional observations from a re-analysis of the deposited data

How the results depend on the processing

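The H3.3 count of 3 members did not change with flanks of 10 or 25 kb, with region centres, with the wider 50% of each set, or with regions at other protein-coding genes left out, and it was 5 with flanks of 100 kb, through 1 region near Mesp1 and Mesp2. The H3K27ac count of 4 members depended more on the setting and was 1 with flanks of 10 kb (Mesp2) and 1 with the wider 50% (Hand1), and from 3 to 5 otherwise. The gene-end counts of 3 for H3.3 and 0 for H3K27ac, and the 0 H3.3 regions that touched H3K27ac, held under every alternative run for them. For the counts of 0 these alternatives could not have given another value. The nearest H3K27ac region lay 4983 bp from a member and 12913 bp from an H3.3 region of the set, beyond the reach of these settings. The wider 50% kept all 10 H3.3 regions, so it could not change the H3.3 counts of the members either. Flanks of 10 or 25 kb, region centres and the gene-end settings could not change the counts of 3 either. H3.3 regions touched Hand1, Hand2 and Twist1, at most 45 bp from a gene end, and lay at least 55226 bp from every other member. None of the 10 lay within 1 kb of another protein-coding gene, so leaving out such regions removed nothing. Summed H3.3 sequence of 15167 bp was 14073 bp with flanks of 10 kb, and summed H3K27ac sequence of 4493 bp (the region of Mesp1 and Mesp2 entering for each) was 383 bp with flanks of 10 kb and 851 bp with the wider 50%.

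The settings for the other lists were chosen after seeing the data. With the wider 50%, H3K27ac was found at 1 other mesoderm bHLH gene, 0 E protein genes, 0 Id genes and 1 upstream regulator, and H3.3 at 0 E protein genes and 1 Id gene. With a gene-end window of 2.5 kb, H3K27ac was found at 5 upstream regulators and 6 muscle structural and fusion genes, and H3.3 at 1 of the latter list. With 500 bp, H3K27ac was found at 1 E protein gene. In each case fewer or more regions enter by construction. No paired analysis was possible because the consensus regions carry no value per library, and for the same reason no library could be left out. The lists cannot show signal below the authors' threshold, and an absent region is not shown to be absent histone.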

Other observations

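Beyond the 50 kb flank, the members differed in their surroundings. With flanks of 100 kb the window of Myog held 12 H3K27ac regions, those of Mesp1 and Mesp2 held 8 and 9, that of Hand1 held 8 and that of Twist2 held 4, while the windows of Hand2, Twist1, Myod1, Myf5 and Myf6 still held 0. The H3.3 region of 1023 bp nearest to Mesp1 and Mesp2, on chromosome 7 from 79868658 to 79869680, lay within 1 kb of no protein-coding gene.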
